A study of Rattus norvegicus with 8 samples.

Results

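The Zfp genes encode zinc finger proteins, and they were followed here in rat nucleus pulposus cells whose RNA-binding protein HuR had been depleted. Members were the rows of the deposited table whose symbol is Zfp, a number and at most 1 letter, with Zfp36 and its paralogs left out because they encode another kind of zinc finger. The rule found 246 rows of 13536, which carry 241 symbols, since 5 symbols stand on a pair of rows each. Of the 246 rows, 235 had enough reads to be tested, among 11847 tested rows in all. The rule used names only and no measured value.

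The tested libraries, ShHuR, were primary nucleus pulposus cells from Wistar rats, transduced with a lentivirus carrying a short hairpin RNA against HuR, the product of Elavl1. Their controls, ShCTR, were the same kind of cells transduced with a pLKO.1 virus whose hairpin has no target. There were 4 libraries per group, numbered 1 to 4 in both, and all cells of both groups had been expanded from explants and kept at 1% oxygen for the last 24 h. The rats' ages and the hairpin sequences do not appear in the labels. Nor do the labels tell whether the 4 libraries of a group are separate animals or cultures, so a p-value here covers only library-to-library spread, which may be technical. In bulk RNA, fewer cells of a type and less RNA per cell cannot be told apart.

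Most Zfp genes encode proteins of the C2H2 class, in which a pair of cysteines and a pair of histidines hold a zinc ion and each finger reads a few bases of DNA. Many of them also carry a KRAB domain, which recruits the protein TRIM28 and with it enzymes that silence chromatin, and these genes often stand in clusters along chromosomes. The messenger RNAs of many transcription factors turn over quickly, and HuR is known for binding AU-rich and U-rich stretches of messenger RNAs and for stabilising many of those it binds.

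Of 235 tested Zfp genes, 16 rose and 2 fell in ShHuR in the limma fit that compares libraries within their replicate number (adjusted p under 0.05, Benjamini-Hochberg over all tested rows). That is 7.66% of the Zfp genes, against 15.2% of all tested rows. The rises were 6.81% of Zfp genes against 7.16% of all rows, so the share that rose was near the background. The falls were 0.851% of Zfp genes against 8.05% of all rows. The rises lay between 0.41 and 1.01 on the log2 scale and were led by Zfp786, Zfp455, Zfp819 and Zfp217, and the falls were Zfp346 and Zfp512b. Without replicate number in the model limma called 0 Zfp genes and 0 rows in all, with 6 Zfp genes at an unadjusted p under 0.05 in limma (2.55%, against 8.26% of all rows), 6 in edgeR (2.55% against 8.53%) and 8 in DESeq2 (3.40% against 10.8%). With replicate number but without limma's mean-variance trend, 3 Zfp genes rose and 3 fell, among 573 rows called in all. The calls also depended on which replicates entered. Without replicate 1 there were 22 rises and 3 falls among Zfp genes, where 23.9% of all rows were called, 11.3% as higher and 12.6% as lower, and without replicate 2, 3 or 4 there were 0 calls among Zfp genes. In those fits 62, 523 and 0 rows were called in all (0.523%, 4.41% and 0%). At an unadjusted p under 0.05 they held 33, 34 and 33 Zfp genes, which is 14.0%, 14.5% and 14.0%, against 23.4%, 25.1% and 24.8% of all rows.

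Elavl1, the target of the hairpin, had 63.8, 6.06, 8.36 and 49.6 normalized counts in ShHuR replicates 1 to 4, against 555, 699, 583 and 644 in ShCTR replicates 1 to 4. Every ShHuR library lay far below every ShCTR library. The log2 fold change was -4.84 (SE 0.55, limma adjusted p = 0.00663 with replicate number in the model and 0.126 without), and the exact permutation test over the libraries gave p = 0.0286, the smallest it can give. Without replicate 4 the blocked limma fit gave an adjusted p of 0.0549 at a log2 fold change of -5.23. Fold changes here are on the log2(value + 1) scale and come out too small for low genes. Normalized counts are the authors' gene counts divided by 1 factor per library, and the recovered totals were 6797360 to 8038192 reads in ShHuR and 9096738 to 12179515 in ShCTR. The labelled cell type was checked against 14 markers, of which 11 were in the table and none was at 0 in every library, though Col2a1 was at 0 in 3 of 4 ShHuR and 2 of 4 ShCTR libraries. Of the 10 tested markers Acan and Car12 fell (20%) and none rose, where 8.05% of all rows fell and 7.16% rose. The 11 markers in the table summed to between 4983 and 7028 normalized counts in ShHuR and between 4437 and 9387 in ShCTR. Hif1a made up most of this sum in every library. Fibroblast and annulus markers were abundant, and 4 of 5 fell in ShHuR, where 8.05% of all rows fell, with a summed level of 42717 to 123422 in ShHuR and 57292 to 155082 in ShCTR. Of 3 listed endothelial markers Flt1 alone was in the table. It rose, with 425, 721, 1402 and 1091 normalized counts in ShHuR, against 412, 242, 551 and 346 in ShCTR (log2 fold change 1.16, limma adjusted p = 0.0271). The part of cell makeup in the Zfp results was not tested.

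The start regions of 3 called genes are printed because the results turn on these genes: Zfp786 (ENSRNOG00000006925) had the largest rise, Zfp598 (ENSRNOG00000012434) rose without overlap between the groups, and Zfp346 (ENSRNOG00000016867) had the larger fall. Each run is 300 bases of RefSeq sequence on the GRCr8 assembly, 250 bases before the annotated start and 50 after, written 5′ to 3′ on the strand of the gene. Capitals mark matches, on either strand, to the motifs that were searched. Zfp786 lies on the minus strand at chr4:78171753-78172052, Zfp598 on the plus strand at chr10:14198574-14198873 and Zfp346 on the minus strand at chr17:9528734-9529033.
Zfp786: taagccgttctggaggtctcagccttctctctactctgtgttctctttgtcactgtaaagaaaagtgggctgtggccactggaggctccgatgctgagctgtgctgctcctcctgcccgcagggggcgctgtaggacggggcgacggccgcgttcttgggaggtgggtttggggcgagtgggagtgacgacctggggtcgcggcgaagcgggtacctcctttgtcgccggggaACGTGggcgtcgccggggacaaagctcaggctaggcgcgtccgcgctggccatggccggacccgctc
Zfp598: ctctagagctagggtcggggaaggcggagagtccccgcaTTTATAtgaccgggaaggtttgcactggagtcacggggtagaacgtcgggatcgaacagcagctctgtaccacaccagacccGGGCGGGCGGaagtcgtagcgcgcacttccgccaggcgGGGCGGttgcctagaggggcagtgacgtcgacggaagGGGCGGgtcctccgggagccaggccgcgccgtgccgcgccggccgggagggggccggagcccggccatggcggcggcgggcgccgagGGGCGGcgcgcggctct
Zfp346: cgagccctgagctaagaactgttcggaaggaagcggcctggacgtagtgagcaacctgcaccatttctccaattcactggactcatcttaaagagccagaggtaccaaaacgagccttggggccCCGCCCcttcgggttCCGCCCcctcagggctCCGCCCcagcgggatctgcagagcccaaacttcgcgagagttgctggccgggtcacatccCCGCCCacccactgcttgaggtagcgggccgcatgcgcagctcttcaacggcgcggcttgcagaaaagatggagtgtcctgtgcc

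In Zfp786 the match was to ACGTG, the core of the element that hypoxia-inducible factors bind. In Zfp598 the matches were to TATAAA and to GGGCGG, the GC box of Sp factors, and in Zfp346 they were to GGGCGG. Start regions were found for 202 Zfp genes, 14 of them called. ACGTG stood in 23.3% of the Zfp start regions, against 26.2% of those of all tested rows. GGGCGG stood in 47.0% of Zfp start regions against 64.7%, and TATAAA in 8.91% against 6.21%. The remaining motifs were CCGGAAG of ETS factors (20.3% against 18.7%), ACTACAA, part of the element that the product of Zfp143 binds (8.42% against 4.50%), AAGATGGCG of YY1 (4.46% against 4.08%) and TGACGTCA, the cyclic AMP response element (2.48% against 3.23%). No motif searched contains another, although neighbouring matches can share letters. The median GC content was 57.3% in Zfp start regions, 60.7% in those of the called genes and 61.3% over all tested rows. These matches describe letters in a window of fixed length and were not tested.

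Among the rises, Zfp786 had 74.5, 74.7, 113 and 139.8 normalized counts in ShHuR replicates 1 to 4, against 46.7, 46.9, 30.1 and 77.1 in ShCTR. ShHuR was higher in every pair, and the groups overlapped only through ShCTR replicate 4. The log2 fold change was 1.01 (SE 0.23, limma adjusted p = 0.0307). Zfp455 had 24.3, 53.5, 103 and 99.2 in ShHuR, against 9.34, 41.0, 42.0 and 50.2 in ShCTR. Both replicate 1 libraries were the lowest of their group, and the log2 fold change was 0.98 (SE 0.22, limma adjusted p = 0.0284). Zfp819 encodes a KRAB zinc finger protein that in the mouse has been studied as a partner of TRIM28 in silencing of endogenous retroviruses. It had 33.4, 54.5, 82.5 and 50.6 normalized counts in ShHuR, against 22.4, 27.1, 40.2 and 26.0 in ShCTR. All pairs rose, with ShHuR replicate 1 inside the ShCTR range, and the log2 fold change was 0.87 (SE 0.19, limma adjusted p = 0.0275).

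Zfp217, whose human counterpart is a breast cancer oncogene and a subunit of CtBP and CoREST repressor complexes, had 123, 415, 653 and 549.9 normalized counts in ShHuR, against 119.6, 188, 329 and 298 in ShCTR. Pair 1 was nearly level (log2 difference 0.04), and the other pairs differed by 0.88 to 1.14. The log2 fold change over all pairs was 0.76 (SE 0.18, limma adjusted p = 0.0339) and reached 1.00 without replicate 1. Zfp507 had 63.8, 245, 257 and 250.1 normalized counts in ShHuR, against 36.4, 156, 195 and 167 in ShCTR. ShHuR replicates 2 to 4 lay above all ShCTR libraries and both replicate 1 libraries lay far below the rest, with a log2 fold change of 0.60 (SE 0.13, limma adjusted p = 0.0256).

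**Figure D1:**
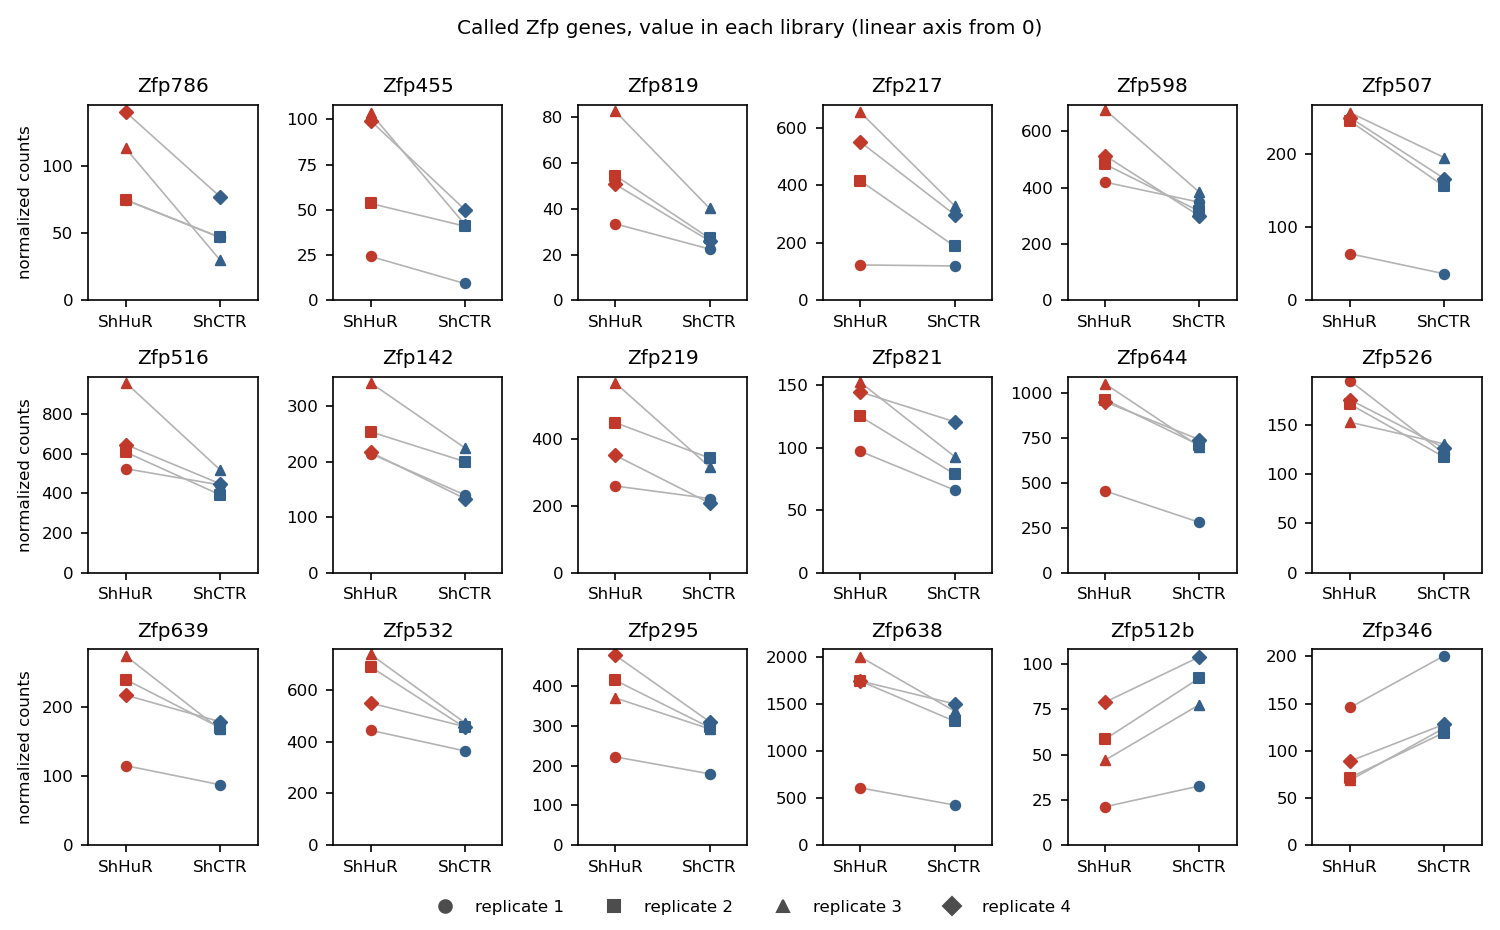
Normalized counts of the 18 called Zfp genes, 1 panel per gene with a linear axis from 0, ShHuR at the left and ShCTR at the right of each panel, and grey lines joining libraries of the same replicate number (marker shape). The lines fall to the right in the 16 genes that rose in ShHuR and climb to the right in Zfp512b and Zfp346, and replicate 1 (circles) is often the lowest in both groups.

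All 18 called genes moved in 1 direction in every pair, and the groups did not overlap in 3 of them. The blocked fit favours genes whose pairs agree, so the first of these counts follows in part from the calling. Over all tested Zfp genes, all 4 ShHuR values lay above all 4 ShCTR values in 5 (2.13%, against 2.52% of all rows) and below them in 1 (0.426%, against 3.09%). The 3 called genes were Zfp598, Zfp516 and Zfp526, and the others were Zfp143, Zfp524 and, below, Zfp958. Zfp524 and Zfp958 were named after their values were seen. Zfp958 had 10.6, 6.06, 8.36 and 12.2 normalized counts in ShHuR, against 15.9, 16.8, 19.2 and 21.5 in ShCTR, and did not pass the test (log2 fold change -0.94, limma adjusted p = 0.0666).

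Of the 10 tested Zfp genes with known roles in RNA handling and the ribosome, 2 rose and 1 fell, where 7.16% of all tested rows rose and 8.05% fell. Zfp598 encodes a ubiquitin ligase that in human cells marks the ribosomal proteins of collided ribosomes. It had 419, 483, 676 and 513 normalized counts in ShHuR, against 348, 316, 383 and 299 in ShCTR. The lowest ShHuR library stood above the highest ShCTR library, and the log2 fold change was 0.62 (SE 0.12, limma adjusted p = 0.0220). Zfp638, which binds nucleic acids in nuclear speckles and whose human counterpart silences unintegrated retroviral DNA, had 609, 1746, 2004 and 1747 in ShHuR, against 428, 1319.5, 1426 and 1504 in ShCTR. Leaving replicate 1 aside, every ShHuR library was above every ShCTR library, and the log2 fold change was 0.41 (SE 0.10, limma adjusted p = 0.0354).

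Zfp346 encodes a nuclear protein that binds double-stranded RNA. It had 146, 71.7, 68.9 and 89.1 normalized counts in ShHuR, against 201, 119, 124 and 128 in ShCTR. Here both replicate 1 libraries were the highest of their group, and ShHuR replicate 1 lay within the ShCTR range. The log2 fold change was -0.64 (SE 0.14, limma adjusted p = 0.0269). The other members of this group did not pass the test. Zfp106, an RNA-binding protein needed for motor nerve and muscle upkeep in mice, had the highest level of all Zfp genes, at 2197 ± 142 normalized counts in ShHuR and 2188 ± 334 in ShCTR (SD, n = 4 each). Its log2 fold change was 0.02 (limma adjusted p = 0.927), which turned to -0.02 under TMM scaling. Zfp622 and Zfp593, whose yeast counterparts act in assembly of the large ribosomal subunit, had log2 fold changes of -0.21 and 0.21, Zfp830 of the spliceosome had 0.30, and Zfp326, a subunit of the human DBIRD complex of transcript elongation, had 0.20. Zfp385b had the largest log2 fold change of any member, 1.30, with an SE of 0.72 and pair differences of -0.85 to 4.22, and it did not pass the test (limma adjusted p = 0.235).

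Of 6 tested Zfp genes with roles in cartilage, bone and other mesenchymal lineages, 1 rose and 0 fell (16.7% called, near the 15.2% of all rows). Zfp219, whose mouse product works with SOX9 on the Col2a1 gene in chondrocytes, had 259.8, 449, 568 and 351 normalized counts in ShHuR, against 222, 343, 317 and 209 in ShCTR. Every pair was higher in ShHuR, while ShHuR replicate 1 fell within the ShCTR range. The log2 fold change was 0.55 (SE 0.13, limma adjusted p = 0.0343). Zfp467, which favours fat over bone formation in mouse marrow cells, was higher in every pair without passing the test (log2 fold change 0.44, limma adjusted p = 0.0841). Zfp521, a repressor that acts in early osteoblasts and chondrocytes, had 126, 432, 383 and 133 in ShHuR, against 163, 325, 412 and 228 in ShCTR, and its pairs went both ways (log2 fold change -0.21, limma adjusted p = 0.456). Zfp687, mutated in a form of Paget disease of bone in humans, had 0.32, Zfp384, a matrix gene regulator, 0.25, and Zfp64 had 0.11, none past the test.

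Of 3 tested Zfp genes that guard imprints or silence repeats, Zfp819 rose and 0 fell (15.2% of all rows were called). Zfp57 and Zfp445, which protect methylation at imprinted regions, had log2 fold changes of -0.02 and 0.06 (limma adjusted p = 0.929 and 0.764). Of 9 on a list headed ubiquitin or SUMO transfer and cell division, 1 rose and 0 fell (11.1%, against 15.2% of all rows). The member that rose was Zfp217. Its human counterpart is described above as a subunit of repressor complexes, so not every listed gene has the roles in the heading. Zfp91, a ubiquitin ligase that in human cells acts on NF-kappa-B signalling, averaged 1284 ± 404 normalized counts in ShHuR and 1408 ± 301 in ShCTR (SD, n = 4 each), a log2 fold change of -0.16 (limma adjusted p = 0.314). Zfp207, which escorts the checkpoint protein BUB3 to kinetochores, was higher in every pair without passing the test, at 0.20 (limma adjusted p = 0.176). Zfp335, needed by dividing neural progenitors in mouse and human, had 0.38 (limma adjusted p = 0.0971). The SUMO ligase gene Zfp451 had -0.08.

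Of 12 broadly expressed regulators, 1 rose and 0 fell (8.33%, against 15.2% of all rows). Zfp644, whose human product joins WIZ in directing the histone methyltransferases G9a and GLP, had 454, 961, 1049 and 949 normalized counts in ShHuR, against 280.2, 709, 701 and 739 in ShCTR. Within replicates 2 to 4 the groups were apart, and the log2 fold change was 0.52 (SE 0.10, limma adjusted p = 0.0212, the smallest among the members). Zfp143, which occupies many promoters and acts on small nuclear RNA genes, had 199, 169, 240.2 and 170.1 in ShHuR, against 144, 147, 165 and 165 in ShCTR. These groups did not overlap, yet the change did not pass the test (log2 fold change 0.31, limma adjusted p = 0.142). Zfp410, whose human counterpart is known for driving CHD4, was lower in every pair at -0.29 (limma adjusted p = 0.115). Zfp281, a repressor in stem cells, had 0.32, and Zfp292, among the 5 highest Zfp genes, had 0.25 (limma adjusted p = 0.225). Zfp266, also among those 5, had 0.00.

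The other rises had no role list. Zfp516, which in the mouse activates brown fat genes, had 524, 608, 958 and 646 normalized counts in ShHuR, against 443, 393, 519.5 and 449 in ShCTR. The groups were apart by a narrow margin, and the log2 fold change was 0.57 (SE 0.12, limma adjusted p = 0.0268). Zfp526 had 194, 171, 152 and 175 in ShHuR, against 120.5, 117, 131 and 126 in ShCTR. It showed little spread in either group, with a log2 fold change of 0.48 (SE 0.13, limma adjusted p = 0.0478). Its call was lost in 5 of 8 other blocked settings.

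Zfp142 averaged 257 ± 59.5 normalized counts in ShHuR and 175 ± 44.8 in ShCTR, a log2 fold change of 0.56 (limma adjusted p = 0.0245, SD over 4 libraries each). Zfp821 averaged 129.9 ± 24.6 in ShHuR and 89.9 ± 23.4 in ShCTR, a log2 fold change of 0.54 (limma adjusted p = 0.0432). Zfp639, Zfp532 and Zfp295, a BTB zinc finger gene that RefSeq calls Zbtb21, lay outside the naming rule and were added after their values were seen. Their log2 fold changes were 0.47, 0.45 and 0.44 (limma adjusted p = 0.0449, 0.0368 and 0.0361). Zfp532, whose human counterpart is a fusion partner of NUTM1 in NUT carcinoma, had 444, 689, 737 and 549 in ShHuR, against 364, 455, 473 and 458 in ShCTR. Only ShHuR replicate 1 lay within the ShCTR range.

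The other fall was Zfp512b, whose human counterpart has been linked to amyotrophic lateral sclerosis. It had 21.3, 58.6, 47.0 and 79.0 normalized counts in ShHuR, against 32.7, 92.3, 77.6 and 104 in ShCTR. Every pair was lower in ShHuR and the groups overlapped widely. The log2 fold change was -0.59 (SE 0.16, limma adjusted p = 0.0488), and the call was lost without the filter on low values, under quantile normalization and in DESeq2.

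**Figure D2:**
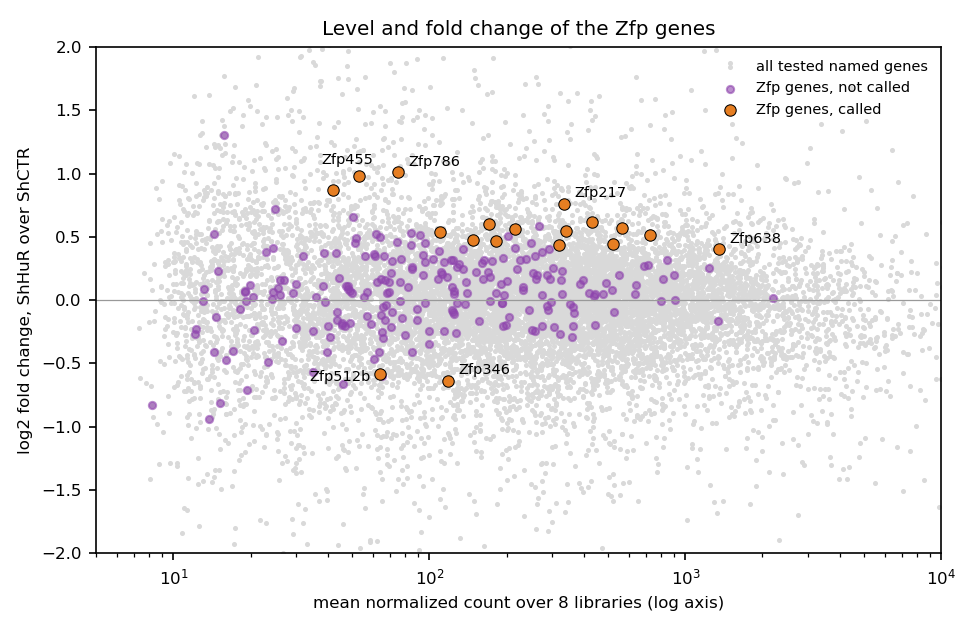
Log2 fold change, ShHuR over ShCTR, against the mean normalized count over the 8 libraries on a log axis, for all tested named genes (grey), Zfp genes not called (purple) and the 18 called Zfp genes (orange). Rows beyond the axes are not drawn. The Zfp genes gather at low levels and small changes, with the 16 rises above the zero line and Zfp346 and Zfp512b below it.

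Zfp genes were low in these cells, with means of 8.26 to 2192 normalized counts over the 8 libraries and a median of 99.6, against 227 over all tested rows. Since low genes are called less often, the shares were set beside rows of the same level. All tested rows were split into 4 equal bins by mean level. In the lowest bin 4.00% of the 100 Zfp genes were called, against 8.04% of all rows. In the next bins the shares were 8.33% of 72 against 14.1%, 12.2% of 49 against 19.7%, and 14.3% of 14 against 19.0%. The share called was lower among Zfp genes in each bin, with few genes in the highest. From the lowest bin up, 3%, 6.94%, 12.2% and 14.3% of Zfp genes rose, against 3.95%, 6.48%, 9.93% and 8.27% of all rows. The falls were 1%, 1.39%, 0% and 0%, against 4.09%, 7.66%, 9.73% and 10.7%. The share that fell was thus lower in every bin, and the share that rose was lower only in the lowest bin.

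The median log2 fold change of the 235 tested Zfp genes was 0.09, against 0.01 over all tested rows. Under TMM scaling the medians were 0.06 and -0.02. Without replicate 1 they were 0.16 and 0.01, without replicate 2 they were 0.04 and 0.01, without replicate 3 0.07 and 0.02, and without replicate 4 0.12 and 0.02, so the size of the difference depended on the replicates used. The middle 50% of Zfp genes lay between -0.11 and 0.30, against -0.26 and 0.26, and 63.4% had a value above 0, against 51.2%. Large changes were fewer, since 12.3% of Zfp genes were over 0.5 in size on the log2 scale, against 23.4%, and 0.851% were over 1, against 5.89%. The median standard error was 0.16 for Zfp genes and 0.15 over all rows.

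**Figure D3:**
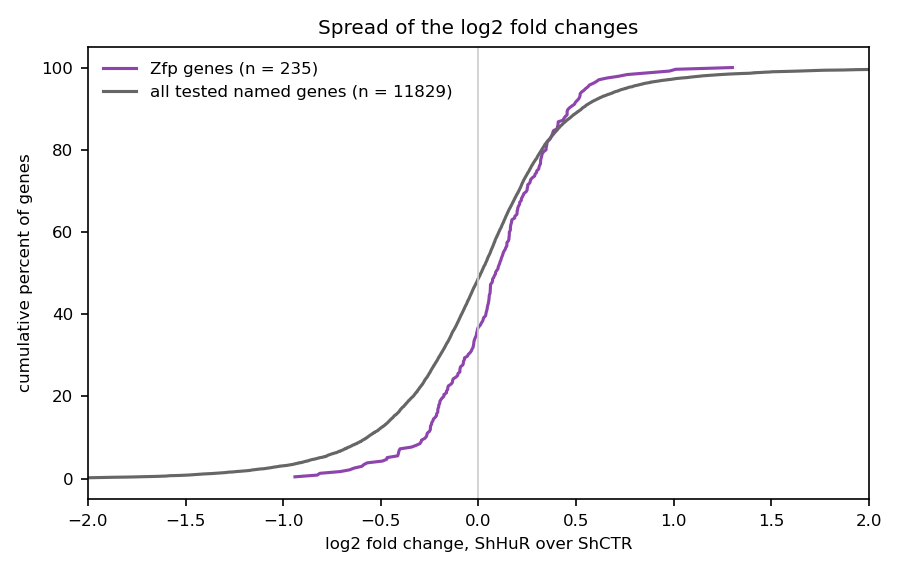
Cumulative percent of genes by log2 fold change, ShHuR over ShCTR, for the 235 tested Zfp genes (purple) and all tested named genes (grey). The purple line climbs more steeply and stays right of the grey one below zero, with 12.3% of Zfp genes against 23.4% of all rows over 0.5 in size.

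Within pairs, the median log2 difference of the Zfp genes was -0.01, 0.21, 0.18 and 0.04 for replicates 1 to 4, against 0.04, 0.03, 0.00 and -0.02 over all tested rows. ShHuR was higher in every pair for 54 Zfp genes (23.0%, against 22.3% of all rows) and lower in every pair for 20 (8.51%, against 19.4%).

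The Zfp genes also differed by replicate number, in both groups alike. Both replicate 1 libraries lay below the other 6 libraries for 140 of 235 Zfp genes (59.6%, against 26.8% of all rows), and above them for 24 (10.2%, against 26.3%). Centred on each gene's mean over the libraries, the median Zfp level on the log2 scale was -0.59, 0.24, 0.37 and 0.29 in ShHuR replicates 1 to 4 and -0.57, 0.05, 0.17 and 0.22 in ShCTR. Both groups had their low library at replicate 1. The median over Zfp genes of replicate 1 minus the other replicates was -0.77, against 0.00 over all rows, and it was -0.79 under TMM scaling, -0.61 under quantile normalization and -1.09 with scaling by total reads (-0.31 over all rows).

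Summed over the 246 rows, Zfp genes had a CPM of 3540, 6020, 6840 and 6527 in ShHuR, against 3385, 4692, 4840 and 5880 in ShCTR. The means were 5732 ± 1500 in ShHuR and 4699 ± 1024 in ShCTR (SD, n = 4 each). The groups overlapped, and ShHuR was higher in all 4 pairs, by 156, 1327, 2000.4 and 646 CPM for replicates 1 to 4 (mean 1032 ± 805, SD of the pairs). CPM divides by each library's total, and the gap was relatively smaller in the authors' normalized counts. There the sums were 36566, 48866, 53538 and 50600 in ShHuR replicates 1 to 4, against 35515, 41848, 45417 and 47936 in ShCTR. Zfp646 shows the size of the replicate difference, with 85.1, 553, 700 and 661 normalized counts in ShHuR, against 105, 513, 574 and 626 in ShCTR, and a log2 fold change of 0.05 between the groups. The leukocyte markers Cd68 and Csf1r, of 3 listed, summed to 664, 22.2, 34.5 and 174 normalized counts in ShHuR and to 573, 24.2, 42.9 and 113 in ShCTR. They were highest in both replicate 1 libraries. So were the sums of the fibroblast and annulus markers (123422 in ShHuR replicate 1 and 42717 to 65561 in ShHuR replicates 2 to 4, 155082 in ShCTR replicate 1 and 57292 to 108592 in ShCTR replicates 2 to 4), of the skeletal muscle markers (1445 in ShHuR replicate 1 and 1095 in ShCTR replicate 1) and of the nucleus pulposus markers (7028 in ShHuR replicate 1 and 9387 in ShCTR replicate 1). In the replicate 1 libraries the skeletal muscle sum was nearly all Des, at 1445 in ShHuR and 1094 in ShCTR. Myh3, the other muscle marker in the table, had 0, 0, 25.1 and 115 in ShHuR replicates 1 to 4, against 0.934, 0.732, 0 and 0.896 in ShCTR. Most of the nucleus pulposus sum was Hif1a, at 5726 in ShHuR replicate 1 and 7903 in ShCTR replicate 1. Single markers of that list went both ways. Hif1a, Acan and Pax1 were highest of their group in both replicate 1 libraries, while Cdh2, Foxf1 and Car3 were lowest there. The part of all these marker lists in the replicate 1 pattern was not tested. By depth, ShHuR replicate 1 had the fewest reads of its group, 6797360, and ShCTR replicate 1, with 11234610, had more than ShCTR replicates 3 and 4.

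**Figure D4:**
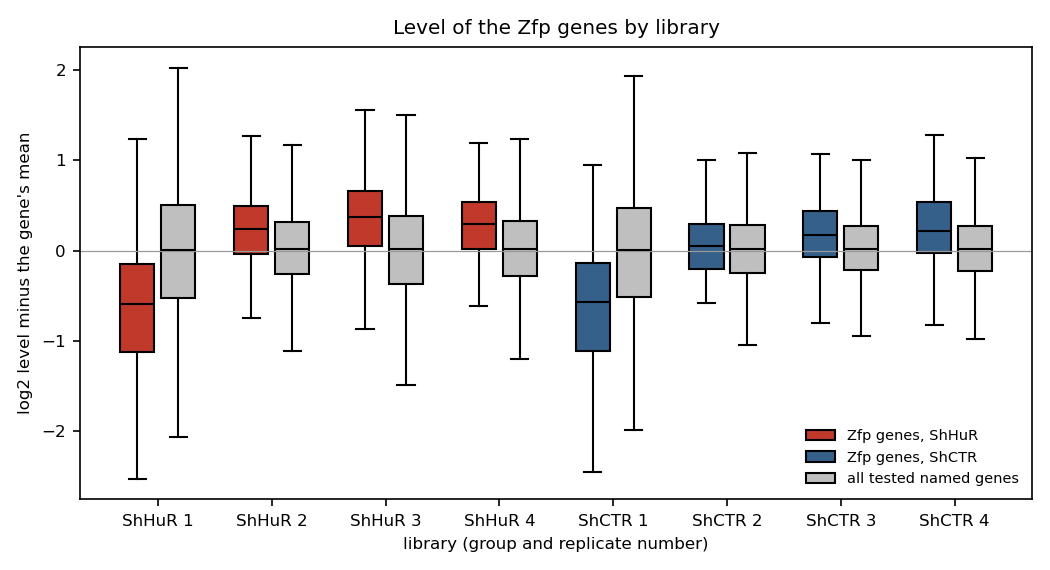
Log2 level minus the gene's mean over the 8 libraries, by library, for the 235 Zfp genes (red, ShHuR, left; blue, ShCTR, right) and for all tested named genes (grey); boxes span the middle 50%, lines are medians and whiskers reach 1.5 box lengths. The Zfp medians are -0.59 and -0.57 in the replicate 1 libraries and between 0.05 and 0.37 in the other libraries, while the grey medians stay near 0.

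By their place in the RefSeq annotation (GRCr8, used for gene order only), members that neighbour another member were compared with those that stand alone. A member counted as alone when no adjacent protein-coding gene was another member. Genes with other names, or missing from the deposited table, broke a run, so a member alone may still lie in a cluster of zinc finger genes. There were 27 runs of 2 or more adjacent members, the longest of 5. Of 70 tested members in runs 2 rose and 0 fell (2.86%), with a median log2 fold change of 0.04. Of 159 that stand alone 14 rose and 2 fell (10.1%), with a median of 0.14. Over all tested rows 15.2% were called. The pair of rises in runs were Zfp786, in a run of 5, and Zfp516. The members in runs had lower levels, with a median of 68.9 normalized counts against 123 for those alone, and the difference between the sets was not tested.

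The list of proteins through which KRAB zinc finger proteins act also held Zfp57, which is itself a Zfp member. It had 37 genes, of which 32 were tested. Of these 3 rose and 1 fell (12.5%, near the 15.2% of all rows), with a median log2 fold change of 0.11, against 0.01. Trim28 itself had 1143, 1746, 1645 and 1737 normalized counts in ShHuR, against 1169, 1775, 1710.2 and 1993 in ShCTR. The groups overlapped, with a log2 fold change of -0.08 (limma adjusted p = 0.592), and the histone methyltransferase gene Setdb1 had 0.23 (limma adjusted p = 0.308). The rises were Smarcad1, a chromatin remodeler (0.62, limma adjusted p = 0.0157), Trim27, a ubiquitin ligase (0.42, limma adjusted p = 0.0395), and Daxx, a histone chaperone (0.39, limma adjusted p = 0.0433). Uhrf1, which links DNA methylation to replication, fell (-0.65, limma adjusted p = 0.0472).

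Other C2H2 families, taken by symbol as Znf, Zbtb, Zkscan and Zscan, and Klf, Sp and Egr genes, had 72 tested rows. Of these 6 rose and 2 fell (11.1%, against 15.2% of all rows), with a median log2 fold change of 0.14. The symbol pattern also took Sp100, Sp110 and Sp140, which are not C2H2 genes and were not called here. They are included in every count and median of the other C2H2 families. Both replicate 1 libraries were lowest for 52.8% of the 72 rows, near the 59.6% of the Zfp genes. A list of immediate early and other short-lived messenger RNAs had 28 tested members, of which 8 rose and 0 fell (28.6%), with a median of 0.24. Over all tested rows 15.2% were called, 7.16% as higher, and the median was 0.01. Hes1, a Notch target and repressor, had 279.6, 310.0, 412 and 448 normalized counts in ShHuR, against 124, 95.2, 90.4 and 128 in ShCTR. Its groups were far apart, with a log2 fold change of 1.71 (limma adjusted p = 0.00517), above every Zfp gene that passed the test. Whether the share called differs between these lists and the Zfp genes was not tested.

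The authors' deposited table calls 17 of the 242 Zfp genes that have an adjusted p there, 16 higher and 1 lower. Over all genes it calls 2116 of 13007 (16.3%), 1058 higher and 1058 lower. Of the 17 Zfp genes, 16 were also called here with the same sign. Zfp715 is called only in the authors' deposited table (log2 fold change 0.58, adjusted p = 0.0384 there), and Zfp512b and Zfp526 only here. The 11 Zfp genes that were not tested had means of 1.23 to 10.6 normalized counts and no single value above 21.3. When limma with replicate number was fitted without the filter, 0 of these 11 were called, and 1 had an unadjusted p under 0.05. This was Zfp711, named after its values were seen, with 10.6, 7.07, 15.7 and 21.3 normalized counts in ShHuR, against 5.60, 5.86, 8.22 and 8.96 in ShCTR. It was higher in every pair with overlapping groups (log2 fold change 0.77, limma adjusted p = 0.137).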

How the data were processed

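The libraries were stranded total RNA with ribosomal RNA depleted, per the labels' protocols. No source used here names the aligner, counting program, build or annotation, or says if counting used strand, so overlapping, antisense and near-identical genes, which this family is rich in, are uncertain. The deposited signal is a gene count over 1 scaling factor for each library, per the file headers and the values: 100% of values in each library were whole reads within 0.01 read of the column's step. The automatic check of whole reads could not apply to ShHuR replicate 2, whose step is close to 1. The authors also deposited log2 fold changes and adjusted p-values, per the file headers. Ensembl identifiers in the sheet of all genes stood out of register with the symbols (3 of 2116 the same as in the sheet of called genes), so only the identifiers beside called genes were used. Dates replaced 21 symbols, with 0.258% of reads, and these rows stayed unnamed.

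A row was tested when 4 of 8 libraries reached 10 normalized counts, which dropped 1689 of 13536 rows. The test was limma 3.58.1 (R 4.3.3) with a mean-variance trend on log2(value + 1), two-sided, with Benjamini-Hochberg adjustment over 11847 rows and a threshold of 0.05. edgeR 4.0.16 and DESeq2 1.42.0 were run on the recovered reads. The design had no block for replicate number, but same-numbered libraries deviated together from their group means (r = 0.87, 0.78, 0.63 and 0.77 across genes for numbers 1 to 4, and 0.90, 0.67, 0.68 and 0.65 across Zfp genes), so the pairing comes from the shared numbers and these values, and the blocked fit is printed. Single-gene values are from it. No libraries of 1 group agreed within sampling noise (chi-square per degree of freedom 43.5 to 188.5). The test was tried on simulated data first.

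The members, lists, roles and tests were chosen with earlier results of these data known. Named genes were Elavl1, up to 12 called members with the highest and 12 with the lowest fold change, the 5 highest members, the 5 with the widest pair differences, the role lists, and up to 2 rising and 2 falling corepressor genes with Trim28 and Setdb1. Daxx and the short-lived gene Hes1 were named after their values were seen. RefSeq symbols on GRCr8 matched 234 rows directly and 7 by synonym, 5 not. Protein features were not analysed here.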

Additional observations from a re-analysis of the deposited data

Results flagged for a closer look

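Within a group of 4, a library is listed here when its gap to the nearest other library was a larger share of the group's whole range than Dixon's 95% critical value. The criterion was applied to 126 groups, and chance alone lists about 5% of groups. It listed 15 values, 14 of them in replicate 1 libraries.

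Among the called genes, Zfp644 was low in ShHuR replicate 1 (454 normalized counts, the others 949 to 1049) and in ShCTR replicate 1 (280.2, the others 701 to 739). Zfp507 was low in ShHuR replicate 1 (63.8, the others 245 to 257). In ShCTR replicate 1, Zfp295 had 179 (the others 292 to 310.1), Zfp532 had 364 (the others 455 to 473) and Zfp639 had 87.8 (the others 168 to 179). Zfp346 was high in ShCTR replicate 1 (201, the others 119 to 128).

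Among genes that were not called, Zfp410 had 212 in ShCTR replicate 1 (the others 447 to 486), Zfp57 had 42.0 (the others 109 to 121) and Zfp866, whose pairs differed widely, had 4.67 (the others 60.3 to 67.2). Zfp866 stands on a pair of rows, and these values are from the row with the higher mean. Zfp326 was high in ShHuR replicate 1, at 146 (the others 83.0 to 90.9). Zfp609 was low in ShHuR replicate 2, at 229 (the others 379.9 to 384). Of the corepressor genes, Smarcad1 was low in ShHuR replicate 1 (161, the others 779.8 to 887) and in ShCTR replicate 1 (117, the others 503 to 543), and Trim28 in ShHuR replicate 1 (1143, the others 1645 to 1746).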

How the results depend on the processing

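Without the replicate block, limma called 0 Zfp genes, 0 corepressor genes, 0 genes of the other C2H2 families and 0 rows in all, at pseudocounts of 5 and 0.5, other filters, other scalings and without the trend, and edgeR also called 0. DESeq2 without the block called 0 Zfp genes, 248 rows in all and 1 gene of the other C2H2 families, and put Elavl1 at -4.29 (adjusted p = 8.08e-08). With the replicate block, limma called 18 Zfp genes, 1802 rows, 4 corepressor genes and 8 of the other families. In the same order the blocked counts were 18, 1831, 4 and 8 with a pseudocount of 5, 16, 1770, 4 and 8 without a filter, 18, 1701, 4 and 8 with 50 counts required, 16, 1737, 3 and 8 under TMM, and 17, 1648, 3 and 8 under quantile normalization. They were 6, 573, 1 and 2 without the trend, where 3 Zfp genes rose and 3 fell, 18, 1845, 4 and 8 in edgeR and 17, 2053, 4 and 9 in DESeq2. limma, edgeR and DESeq2 with the block shared 16 called Zfp genes. Elavl1 with the block was at -4.84 in limma, -4.51 with a pseudocount of 5, -4.87 under TMM and quantile normalization, -4.50 in edgeR and -4.88 in DESeq2.

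Leaving out 1 replicate number at a time gave 0 to 25 called Zfp genes with the block, 0 to 2831 rows (62 without replicate 2 and 523 without replicate 3), 0 to 6 corepressor genes and 0 to 12 of the other families, and without the block 0 Zfp genes, 0 to 315 rows, 0 to 1 corepressor genes and 0 to 1 of the other families. Elavl1 ranged from -5.42 to -4.25, with -4.47 without replicate 3. Of the 18 called Zfp genes, 14 were also called without replicate 1. The cause of these dependences was not tested.

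The median over all rows moved to -0.019 under TMM. Log2 fold changes near 0 changed sign. With and without the replicate block, under TMM, Zfp54 was at -0.0089, Zfp106 at -0.016 and Zfp266 at -0.028, and Zfp266 was at -0.012 under quantile normalization. In edgeR, Zfp106 was at -0.0034 with the replicate block and -0.012 without it, and Zfp266 at -0.015 and -0.010. With 1 replicate number left out, with or without the block, Zfp37 ranged from -0.94 to 0.18, Zfp54 from -0.27 to 0.38 (-0.13 without replicate 2), Zfp646 from -0.035 to 0.16, Zfp131 from -0.046 to 0.16, Zfp445 from -0.043 to 0.18 and Zfp57 from -0.11 to 0.088. Zfp365 ranged from -0.10 to 0.39 (-0.030 without replicate 1 and -0.067 without replicate 2), Zfp106 from -0.029 to 0.075 (-0.013 without replicate 2) and Zfp266 from -0.061 to 0.090 (-0.019 without replicate 3). None of the 18 called genes changed sign in these settings. Zfp37 stands on a pair of rows, and its range above is from the row with the higher mean (17.1 normalized counts). The other Zfp37 row, with a mean of 8.26, had a log2 fold change of -0.82 with all replicates. Protein features of the Zfp genes were not run. The 11 members left out by the filter had few reads, which limits what can be read from them.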
